A study of Mus musculus with 7 samples.

Results

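Genes whose symbols start with Klhl, Kbtbd or Btbd were described in left ventricles of WT mice and of mice homozygous for the titin variant A178D. Many of their products are substrate adaptors of the ubiquitin ligase built on cullin 3. The BTB domain of such an adaptor binds cullin 3, and a separate region, often a propeller of Kelch repeats, holds the protein to be ubiquitinated. A ring finger protein, Rbx1, brings in the charged ubiquitin-conjugating enzyme, and attachment of the small modifier Nedd8 to the cullin switches the complex on. In striated muscle several Kelch adaptors are known for guarding thin filament proteins rather than for degrading them, and mutations in KLHL40, KLHL41 and KBTBD13 cause nemaline myopathy. The Klhl and Kbtbd symbols stand for BTB-Kelch proteins, while most Btbd proteins carry the BTB domain without Kelch repeats. The Btbd genes were therefore also described apart below.

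The rule took genes with these symbols and at least 10 counts in at least 3 libraries. It gave 50 genes of the 13875 that passed the same count minimum over the whole table, namely 33 Klhl, 8 Kbtbd and 9 Btbd genes. *Btbd8* has 2 entries with differing counts under 1 identifier, which were kept apart, so that 51 entries were tested. A further 35 genes with these symbols did not reach the minimum. Of these, 28 belong to the rodent Btbd35f cluster and had a count of 0 in every heart. The others were *Btbd16*, *Btbd17*, *Btbd18*, *Kbtbd6*, *Klhl1*, *Klhl14* and *Klhl35*. Just outside the minimum, *Kbtbd6* had 12, 10 and 8 counts in WT and 2, 6, 8 and 0 counts in A178D hearts. *Btbd16* was next, with 10 or more counts in 1 library, A178D replicate 2, where it had 12. Just inside it, *Klhl10* had 25 to 61 counts, *Klhl29* had 24 to 63 and the smaller *Btbd8* entry 20 to 59. All 51 entries had at least 10 counts in all 7 hearts, so that none passed through 1 genotype alone.

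The samples were 3 WT left ventricles, numbered 1, 3 and 4, and 4 homozygous A178D left ventricles, numbered 1 to 4, from mice labelled C57BL/6J. A178D replaces an alanine near the amino terminus of titin, in its Z-disc part. The variant was written into C57BL/6N embryonic stem cells by genome editing, and the line was then backcrossed onto C57BL/6J, with WT littermates as controls. Age and sex of the sequenced mice are not given in the sources used here. The libraries were made from poly(A) RNA with a stranded kit and sequenced from both ends, and held between 33080675 counts (A178D replicate 4) and 54245530 counts (WT replicate 3). Only 17.6 to 20.3% of the counts between 1 and 20 were odd numbers, so that a low count may stand for about 1 fragment per 2 counts. Levels are given in CPM, counts scaled to library size with TMM factors, and comparisons between genes use CPM per kilobase of exon. *Ttn* itself measured 6659 ± 521 CPM in WT (SD, n = 3) and 5528 ± 1072 CPM in A178D (SD, n = 4), with a log2 fold change of -0.27 (SE 0.12, edgeR adjusted p = 0.287). A178D replicate 4 had the lowest *Ttn* value, 4087 CPM, where the other A178D hearts had 5360 to 6490, and without it the log2 fold change was -0.15 (edgeR adjusted p = 0.355).

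The members spanned more than 2 orders of magnitude in level. Their highest mean level per kilobase belonged to *Btbd1* with 48.5 CPM per kb, followed by *Klhl41* with 45.3, *Klhl21* with 37.4, *Klhl24* with 29.1 and *Klhl38* with 25.3. The median over all tested genes with a known exon length was 3.90 CPM per kb, and 22 of the 51 entries lay above it. The 11 genes grouped under striated muscle and heart had the highest level, with a median of 15.0 CPM per kb. In this group stands *Klhl3*, although it is best known from the kidney, and it had 0.441 CPM per kb. The 13 adaptors with known substrates in other tissues had a median of 3.19, the 17 further Klhl and Kbtbd genes 2.27 and the 10 Btbd entries 2.13 CPM per kb. The lowest levels were those of the smaller *Btbd8* entry with 0.111, *Klhl29* with 0.154 and *Klhl15* with 0.191 CPM per kb.

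A178D was compared with WT to ask which members differ between the genotypes. One of the 51 entries passed the test, *Btbd3*, which was lower in A178D hearts (edgeR's quasi-likelihood test, Benjamini-Hochberg adjusted p under 0.05 over 13894 entries). No member was called higher. The call was 1 of the 10 Btbd entries, and none of the 33 Klhl and 8 Kbtbd entries passed. Over the whole table the same test called 2.35% of entries, 1.31% as lower and 1.04% as higher. At an unadjusted p under 0.05 there were 5 members with higher and 6 with lower values in A178D, beside 16.7% of all entries in either direction. DESeq2 called 4 members, *Klhl30* and *Klhl40* as higher and *Btbd3* and *Klhl28* as lower, beside 4.94% of all entries. In 8 members, 4 in each direction, the 2 genotypes did not overlap, beside 16.1% of all entries. These were *Klhl5*, *Klhl6*, *Klhl30* and *Klhl40* with higher and *Btbd3*, *Btbd11*, *Kbtbd13* and *Klhl23* with lower values in A178D. The share of members called by edgeR was thus near that of the table as a whole. Their median log2 fold change was 0.00012, with 26 entries above and 25 below 0, and that of all entries was 0.0023. Summed over the members, the level was 1816, 1784 and 1894 CPM in the WT and 1855, 1853, 1791 and 1700 CPM in the A178D hearts. Tissue was measured in bulk, so that fewer cells of a type and less RNA per cell cannot be told apart for any of these genes.

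**Figure D1:**
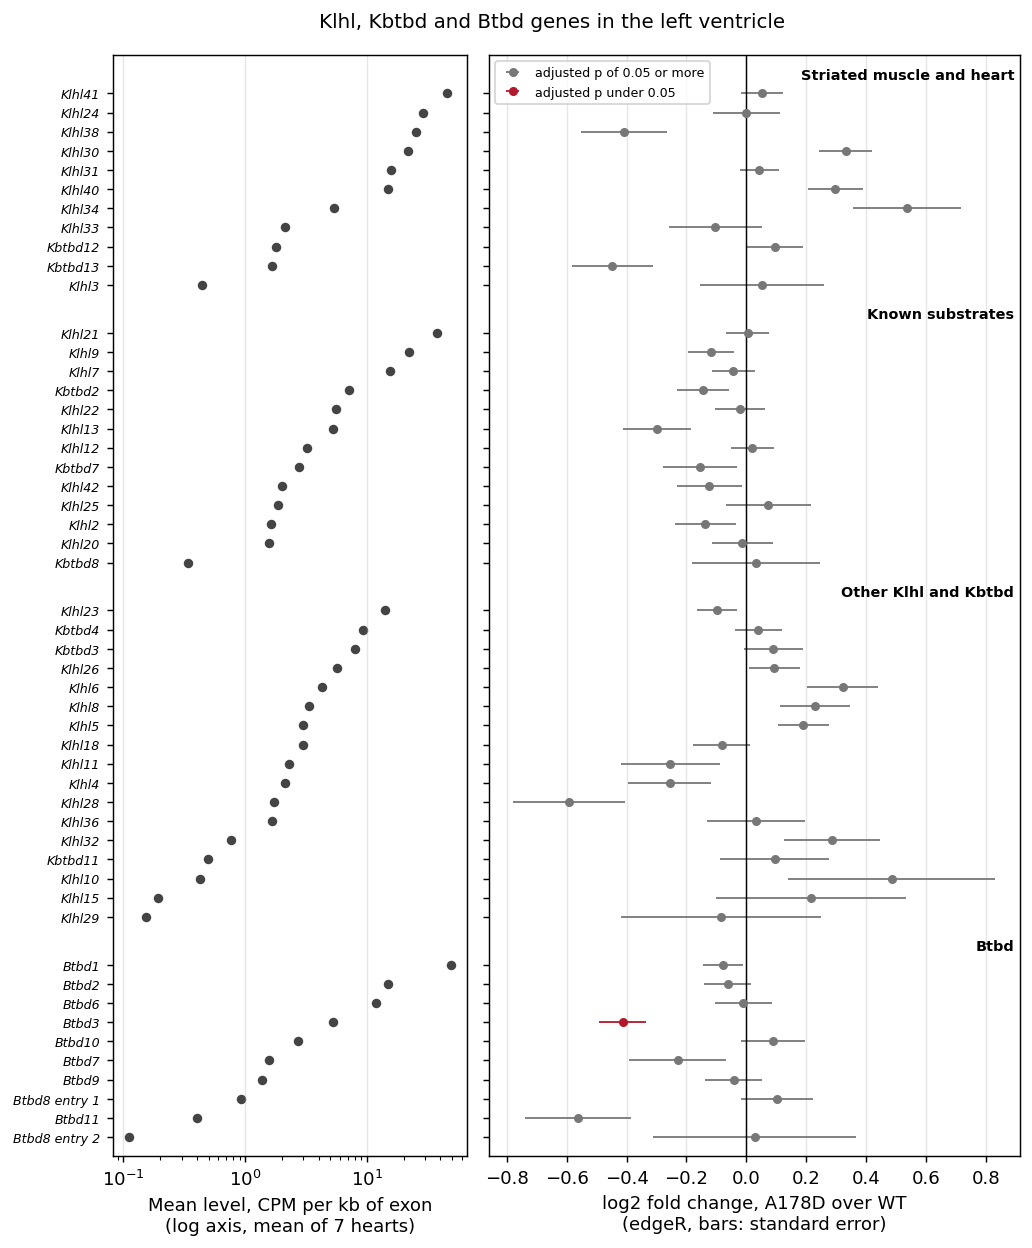
Mean level per kilobase of exon on a log axis (left) for the 51 entries, grouped by role and ordered by level. On the right is the log2 fold change of A178D over WT, with its standard error derived from the edgeR test. Btbd3, at -0.41, is the entry drawn in red for an adjusted p under 0.05, and the fold changes run from -0.59 for Klhl28 to 0.54 for Klhl34.

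Among the adaptors of striated muscle, none of 11 passed the test. At an unadjusted p under 0.05 there were 3 higher and 2 lower, beside 16.7% of all entries in either direction, with a median log2 fold change of 0.052. *Klhl41*, whose product binds and stabilises nebulin, was the most abundant of them. It measured 109.5, 108 and 119 CPM in WT replicates 1, 3 and 4 and 123, 122, 109 and 112 CPM in A178D replicates 1 to 4. Its genotypes overlapped, and the log2 fold change was 0.052 (SE 0.072, edgeR adjusted p = 0.767). *Klhl40*, its closest relative, protects nebulin and leiomodin 3 in skeletal muscle. It measured 28.9, 34.8 and 35.6 CPM in WT and 38.4, 43.2, 38.4 and 42.6 CPM in A178D hearts. All 4 A178D values lay above the highest WT value, and the log2 fold change was 0.30 (SE 0.091, edgeR adjusted p = 0.112). DESeq2 placed *Klhl40* just under the threshold, with an adjusted p of 0.0497. In the edgeR fits without 1 heart its log2 fold change ran from 0.21 to 0.35. The exons of *Klhl40* share 540 of 2501 bases with a gene model on the opposite strand, Gm47108, and the strand setting of the counting is not given in the sources used here.

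*Klhl30*, a less studied muscle gene, came closest to the threshold after *Btbd3*. Its levels were 66.9, 56.7 and 50.4 CPM in WT and 73.9, 73.2, 71.3 and 73.8 CPM in A178D hearts. The A178D hearts lay within a narrow range above all WT hearts, of which replicate 1 was nearest to them. The log2 fold change was 0.33 (SE 0.088, edgeR adjusted p = 0.0698), and DESeq2 gave an adjusted p of 0.0168. Without WT replicate 1, *Klhl30* was called by edgeR, at 0.45 with an adjusted p of 0.00799, while without WT replicate 4 it was at 0.24 with an adjusted p of 0.251. *Klhl34*, an X-linked gene, measured 9.53, 8.64 and 6.57 CPM in WT and 15.6, 12.9, 8.86 and 10.5 CPM in A178D hearts. A178D replicates 1 and 2 were the highest, and replicate 3 lay among the WT hearts. Its log2 fold change of 0.54 (SE 0.18, edgeR adjusted p = 0.152) was the largest positive one of the members, and in the fits without 1 heart it ran from 0.38 to 0.66.

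*Kbtbd13*, whose product binds thin filament actin and affects relaxation, had lower values in every A178D heart. It measured 5.63, 6.13 and 5.66 CPM in WT and 3.84, 4.33, 4.31 and 4.57 CPM in A178D. The spread within a genotype was small, but the counts were low, and the log2 fold change was -0.45 (SE 0.13, edgeR adjusted p = 0.107). With offsets for transcript length and GC content it passed, at -0.49 with an edgeR adjusted p of 0.0459. *Klhl38* measured 46.6, 70.3 and 78.5 CPM in WT and 52.02, 54.7, 48.4 and 40.7 CPM in A178D hearts. WT replicate 1 lay among the A178D hearts and the other WT hearts above all of them. The log2 fold change was -0.41 (SE 0.15, edgeR adjusted p = 0.175), and without WT replicate 1 it was -0.60 with an edgeR adjusted p of 0.00698. Without WT replicate 4 it was -0.25, with an edgeR adjusted p of 0.488, so that its size depends on which WT hearts are kept. Of the 2212 exon bases of *Klhl38*, 1446 are shared with the antisense gene Gm15943, and its counts are identical to those of an identifier without a name, so that reads of the 2 strands may not be separated in this value.

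The remaining muscle adaptors were nearer to 0. *Klhl24*, known for turning over desmin and for human mutations that cause skin blistering and cardiomyopathy, had the highest CPM of all members. Its levels were 282, 277 and 330.3 CPM in WT and 334, 322, 300.3 and 228 CPM in A178D hearts. A178D replicate 4 was the lowest heart, and the others overlapped. The log2 fold change was 0.00012 (SE 0.11, edgeR adjusted p = 1.00), and in the fits without 1 heart it ran from -0.063 to 0.11. *Klhl31*, needed for normal skeletal muscle growth, measured 102 ± 2.72 CPM in WT (SD, n = 3) and 105 ± 4.39 CPM in A178D (SD, n = 4), a log2 fold change of 0.043 (SE 0.066, edgeR adjusted p = 0.793). For *Klhl33* the log2 fold change was -0.10 (SE 0.16, edgeR adjusted p = 0.789), from -0.29 to 0.014 in the fits without 1 heart, and for *Kbtbd12* 0.094 (SE 0.10, edgeR adjusted p = 0.665), from 0.052 to 0.14. *Klhl3*, an adaptor for WNK kinases, had a log2 fold change of 0.052 (SE 0.21, edgeR adjusted p = 0.934). This value ran from -0.060 to 0.20 in the fits without 1 heart.

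**Figure D2:**
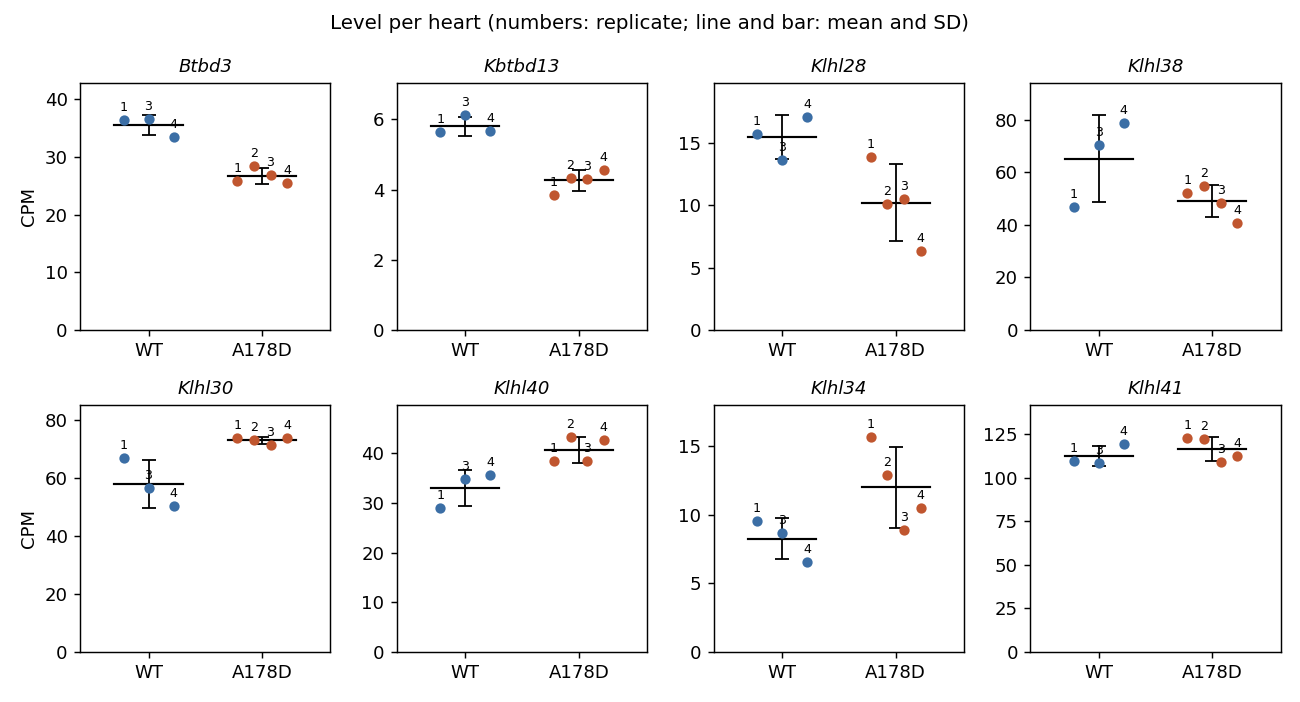
Level in CPM of 8 members in each heart, with WT in blue and A178D in orange, the replicate number above each point, and the mean and SD of each genotype in black. Btbd3, Kbtbd13, Klhl30 and Klhl40 show no overlap between the genotypes, while in Klhl38, Klhl34, Klhl28 and Klhl41 at least 1 heart lies among those of the other genotype.

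The adaptors with known substrates in other tissues gave no call, with 1 of 13 lower and none higher at an unadjusted p under 0.05 (16.7% of all entries), and DESeq2 called none either. Their median log2 fold change was -0.043. *Klhl21*, *Klhl9* and *Klhl13* act on Aurora B in dividing cells. *Klhl21* was the third most abundant member and measured 149 ± 7.37 CPM in WT (SD, n = 3) and 149 ± 9.70 CPM in A178D (SD, n = 4), a log2 fold change of 0.0048 (SE 0.072, edgeR adjusted p = 0.984). *Klhl9* had 97.1 ± 7.43 CPM in WT (SD, n = 3) and 89.4 ± 5.80 CPM in A178D (SD, n = 4), a log2 fold change of -0.12 (SE 0.077, edgeR adjusted p = 0.476), or -0.062 without WT replicate 4. Of the exon bases of *Klhl21*, 817 of 3986 are shared with Gm9768 on the opposite strand, and of those of *Klhl9*, 661 of 4174 with Gm26566. *Klhl13*, an X-linked close relative of *Klhl9*, measured 20.1, 27.5 and 27.4 CPM in WT and 20.1, 19.7, 22.5 and 18.96 CPM in A178D hearts. WT replicate 1 lay among the A178D hearts. Its log2 fold change was -0.30 (SE 0.11, edgeR adjusted p = 0.204), and without WT replicate 1 it was -0.43 with an edgeR adjusted p of 0.0294. Without WT replicate 3 it was -0.22, with an edgeR adjusted p of 0.503. The other log2 fold changes of this group ran from -0.16 for *Kbtbd7*, an adaptor for the Rac activator Tiam1 (-0.055 without A178D replicate 4), to 0.073 for *Klhl25*, an adaptor for the translation repressor 4E-BP1. *Klhl12*, which ubiquitinates the COPII coat protein Sec31a, stayed within a tight range of 35.1 to 38.1 CPM over all 7 hearts.

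Among the 17 further Klhl and Kbtbd genes, 2 had higher and 1 lower values in A178D at an unadjusted p under 0.05 (16.7% of all entries), and edgeR called none. *Klhl28* had the most negative log2 fold change of all members. It measured 15.7, 13.6 and 17.1 CPM in WT and 13.9, 10.1, 10.5 and 6.33 CPM in A178D hearts. A178D replicate 1 lay among the WT hearts and A178D replicate 4 far below the rest. The log2 fold change was -0.59 (SE 0.19, edgeR adjusted p = 0.123), while DESeq2 gave -0.60 with an adjusted p of 0.0364. Without A178D replicate 4 it was -0.43 with an edgeR adjusted p of 0.115, and without A178D replicate 1 -0.77 with 0.0574. Over the fits without 1 heart the edgeR adjusted p of *Klhl28* ran from 0.0574 to 0.329. *Klhl6*, known from B cells and endothelium, measured 10.9, 10.01 and 8.07 CPM in WT and 12.4, 11.04, 12.9 and 12.04 CPM in A178D hearts, with a log2 fold change of 0.32 (SE 0.12, edgeR adjusted p = 0.190), or 0.21 without WT replicate 4. *Klhl5* gave 20.9, 19.5 and 18.4 CPM in WT and 23.2, 22.6, 22.4 and 21.4 CPM in A178D hearts, with a log2 fold change of 0.19 (SE 0.085, edgeR adjusted p = 0.279). In both genes the genotypes did not overlap, but the gap between them was small. *Klhl23*, without overlap in the other direction, had 71.7 ± 2.09 CPM in WT (SD, n = 3) and 66.99 ± 2.33 CPM in A178D (SD, n = 4), a log2 fold change of -0.10 (SE 0.067, edgeR adjusted p = 0.508). The testis gene *Klhl10* had a log2 fold change of 0.49 (SE 0.35, edgeR adjusted p = 0.521) on levels of at most 1.51 CPM, or 0.25 without A178D replicate 1.

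*Btbd3* (ENSMUSG00000062098), known for steering dendrites towards active axons in the cortex, was the called member. It lies on chromosome 2 from 138256565 to 138589292 (GRCm38, plus strand). Its levels were 36.4, 36.6 and 33.5 CPM in WT and 25.9, 28.5, 26.8 and 25.5 CPM in A178D hearts. The highest A178D value was under the lowest WT value, and the gap between the genotypes exceeded the range within either of them. *Btbd3* fell by 0.41 on the log2 scale (SE 0.079, edgeR adjusted p = 0.0167). The call was lost without WT replicate 3, where the adjusted p was 0.106, and without A178D replicate 1, where it was 0.0595. In the 7 fits without 1 heart its log2 fold change ran from -0.45 to -0.39. *Btbd11*, an ankyrin repeat protein with a BTB domain, measured 4.70, 6.13 and 3.94 CPM in WT and 3.47, 2.88, 3.47 and 3.58 CPM in A178D hearts. The lowest WT heart was close to the A178D hearts, and the log2 fold change was -0.56 (SE 0.18, edgeR adjusted p = 0.121), or -0.37 without WT replicate 3 (edgeR adjusted p = 0.437). *Btbd1* and *Btbd2*, a related pair whose products bind topoisomerase I, had log2 fold changes of -0.078 (SE 0.068) and -0.062 (SE 0.079). The substrate adaptor *Btbd6* gave -0.0098 (SE 0.095), *Btbd10* 0.089 (SE 0.11) and *Btbd9* -0.042 (SE 0.094). *Btbd7* gave -0.23 (SE 0.16, edgeR adjusted p = 0.518), with A178D replicate 4 at 15.01 CPM and all other hearts between 24.98 and 29.4. Without that heart it was -0.065, and with length and GC offsets -0.14. The larger *Btbd8* entry gave 0.10 (SE 0.12) and the smaller one 0.028 (SE 0.34), and its exons overlap those of Gm42669 on the same strand over 1502 bases.

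Position relative to the edited gene was recorded because the *Ttn* allele came from C57BL/6N cells, so that the genotype and sequence linked to it cannot be told apart. *Ttn* lies on chromosome 2 from 76703980 to 76982547, and 4 tested members share this chromosome. *Klhl41* lies 7.02 Mb and *Klhl23* 6.87 Mb from *Ttn*, *Kbtbd4* 13.9 Mb and *Btbd3* 61.3 Mb. Called genes of the lists on this chromosome were *Neb*, from 52136647 to 52378474, and *Mybpc3*, from 91118144 to 91136516, and the part of linked sequence in any of these values was not tested. *Kbtbd4* had a log2 fold change of 0.040 (SE 0.078, edgeR adjusted p = 0.847). It shares 1657 of its 3139 exon bases with *Ptpmt1* on the opposite strand, and its counts are identical to those of an identifier without a name.

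Sequences before the transcription start are shown for 4 members, the called *Btbd3*, the pair *Klhl40* and *Klhl41*, of which the first had higher values in every A178D heart and the second did not, and *Kbtbd13*, with lower values in every A178D heart. They are from RefSeq on GRCm38.p6, which gave promoters for 42 of the 50 member genes, and are printed 5′ to 3′ on the strand of the gene. Each covers up to 250 bases before the RefSeq start and ends before the start of the gene in GENCODE. Capitals mark matches on either strand to 4 motifs, CAGCTG as bound by myogenic factors, CACGTG as bound by clock factors, CTANNNNTA as a loose form of MEF2 sites and TGACNNNGC as bound by Nrf2.
Btbd3, chr2:138256334-138256564, strand +: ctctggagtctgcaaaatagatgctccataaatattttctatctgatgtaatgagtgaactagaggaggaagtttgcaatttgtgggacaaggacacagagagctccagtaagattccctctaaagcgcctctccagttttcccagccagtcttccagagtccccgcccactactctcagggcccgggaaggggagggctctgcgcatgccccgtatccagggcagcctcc
Klhl40, chr9:121777357-121777606, strand +: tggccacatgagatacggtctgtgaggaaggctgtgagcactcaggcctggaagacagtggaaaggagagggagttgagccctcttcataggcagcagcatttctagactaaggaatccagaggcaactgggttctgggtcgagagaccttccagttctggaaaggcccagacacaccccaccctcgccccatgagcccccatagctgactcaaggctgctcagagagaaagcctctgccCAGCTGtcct
Klhl41, chr2:69669870-69670119, strand +: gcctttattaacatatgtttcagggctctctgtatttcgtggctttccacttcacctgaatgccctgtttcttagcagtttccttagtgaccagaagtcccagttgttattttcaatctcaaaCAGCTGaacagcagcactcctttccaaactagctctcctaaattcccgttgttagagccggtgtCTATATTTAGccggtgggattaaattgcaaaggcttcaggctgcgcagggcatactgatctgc
Kbtbd13, chr9:65391653-65391902, strand -: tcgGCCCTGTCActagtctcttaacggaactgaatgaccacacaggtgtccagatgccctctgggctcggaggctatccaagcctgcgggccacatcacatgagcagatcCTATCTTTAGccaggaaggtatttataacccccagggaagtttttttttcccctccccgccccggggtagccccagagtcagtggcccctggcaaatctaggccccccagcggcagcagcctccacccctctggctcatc
CAGCTG occurs in the windows of *Klhl40* and *Klhl41*, CTANNNNTA in those of *Klhl41* and *Kbtbd13*, and TGACNNNGC, read as GCNNNGTCA, in that of *Kbtbd13*. No match was found in the window of *Btbd3*. Over all 32851 windows of 250 bases, 13.00% held CAGCTG, 6.02% CACGTG, 18.96% CTANNNNTA and 10.2% TGACNNNGC. Of the 58 windows of members, 10 held CAGCTG (17.2%), 6 CACGTG (10.3%), 11 CTANNNNTA (18.97%) and 11 TGACNNNGC (18.97%). Windows of 1 gene can overlap, and the 2 windows of *Btbd6* share a TGACNNNGC match, as do the 2 of *Kbtbd3*. The median GC content was 58.8% in the windows of members and 52.4% in all windows. The windows with CTANNNNTA were those of 4 muscle members, *Klhl41*, *Klhl33*, *Kbtbd12* and *Kbtbd13*, and of members outside that group. The latter were *Klhl10*, *Klhl13*, *Klhl18*, *Klhl20*, *Klhl23* and *Klhl36*. A match is a description of letters, and none of these motifs was tested.

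Of the core of the ligase that these adaptors serve, no gene passed the test. *Cul3*, the scaffold, had 160.3 ± 5.76 CPM in WT (SD, n = 3) and 155 ± 4.49 CPM in A178D (SD, n = 4), a log2 fold change of -0.051 (SE 0.064, edgeR adjusted p = 0.738). *Rbx1* had a log2 fold change of 0.10 (SE 0.070, edgeR adjusted p = 0.504). Of the 27 genes of the Cul3 core and of neddylation, edgeR called none, beside 2.35% of all entries. At an unadjusted p under 0.05, 2 were higher and 1 lower, beside 16.7% of all entries. Their median log2 fold change was 0.059, with 23 of the 27 above 0, beside 7018 of all 13894 entries. Kelch BTB genes under other symbols gave no edgeR call among 5. At an unadjusted p under 0.05 none was higher and 1 lower, *Ivns1abp*, beside 16.7% of all entries. *Keap1*, the adaptor for Nrf2, had a log2 fold change of 0.10 (SE 0.080, edgeR adjusted p = 0.582), and its substrate gene *Nfe2l2* -0.14 (SE 0.069, edgeR adjusted p = 0.313). Of 9 tested Klhdc genes, which encode Kelch proteins without a BTB domain, edgeR called 1, beside 2.35% of all entries. *Klhdc8a* measured 29.7, 22.2 and 17.97 CPM in WT and 44.9, 38.4, 43.8 and 50.96 CPM in A178D hearts, without overlap. It rose by 0.93 on the log2 scale (SE 0.14, edgeR adjusted p = 0.00587). Without WT replicate 3 the log2 fold change was 0.89, with an edgeR adjusted p of 0.0505.

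Transcripts of known substrates and partners were read beside their adaptors. Of 27 tested, edgeR called 1 higher and 1 lower, beside 2.35% of all entries in either direction, and the median log2 fold change was -0.026. *Neb*, which encodes nebulin, the partner of Klhl40 and Klhl41, measured 4.49, 9.17 and 7.16 CPM in WT and 15.9, 21.3, 16.7 and 9.91 CPM in A178D hearts. It rose by 1.21 on the log2 scale (SE 0.24, edgeR adjusted p = 0.0200) and stood at 0.455 CPM per kb over all hearts, far below its adaptors. The adjusted p was 0.0957 without WT replicate 4, 0.0574 without A178D replicate 1 and 0.0530 without A178D replicate 3. In these 3 fits the log2 fold change of *Neb* was 1.23, 1.21 and 1.19. *Lmod3*, the other partner of Klhl40, had a log2 fold change of 0.087 (SE 0.087, edgeR adjusted p = 0.658), and the cardiac leiomodin *Lmod2* -0.11 (SE 0.064, edgeR adjusted p = 0.420). *Des*, the desmin gene, had 2455 ± 48.3 CPM in WT (SD, n = 3) and 2601 ± 291 CPM in A178D (SD, n = 4), a log2 fold change of 0.083 (SE 0.080, edgeR adjusted p = 0.644). A178D replicate 4 had 3024 CPM and the other A178D hearts 2361 to 2518, and the fits without 1 heart gave 0.0031 to 0.13. *Pik3r1*, which encodes the regulatory subunit of PI 3-kinase that Kbtbd2 targets, measured 188, 205 and 233 CPM in WT and 147, 151, 156 and 136 CPM in A178D hearts. It fell by 0.50 on the log2 scale (SE 0.081, edgeR adjusted p = 0.00731) and was called in all 7 fits without 1 heart. *Kbtbd2* had a log2 fold change of -0.14 (SE 0.088, edgeR adjusted p = 0.439), which was -0.049 without WT replicate 1.

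Markers of cell types were read in the same libraries. Over all entries edgeR called 2.35%, and 16.7% had an unadjusted p under 0.05. Of 10 cardiomyocyte genes, edgeR called *Mybpc3* higher, at 0.30 (SE 0.063, edgeR adjusted p = 0.0230). At an unadjusted p under 0.05, 2 of the 10 were higher and 1 lower. The summed level of the 10 was 109300, 114300 and 113400 CPM in WT and 109200, 109700, 108200 and 115800 CPM in A178D hearts. *Actc1* was the most abundant of them per kilobase. Of 9 smooth muscle and pericyte genes, all 9 had log2 fold changes below 0, 7 were lower at an unadjusted p under 0.05, and edgeR called 5 lower, *Acta2* (-0.59), *Tagln* (-0.62), *Myh11* (-0.67), *Lmod1* (-0.70) and *Cnn1* (-0.82). Their summed level was 1338, 1366 and 1342 CPM in WT and 1040, 1131, 1201 and 954 CPM in A178D hearts. *Acta2* (70.1 CPM per kb) and *Abcc9* (67.7) were the most abundant per kilobase. The part of this summed level in the values of the members, *Btbd3* included, was not tested. Of 7 tested skeletal muscle genes, 3 that cardiomyocytes can also express were called higher, *Acta1* (2.63), *Casq1* (1.14) and *Ryr1* (edgeR adjusted p = 0.0328). Without a call, *Tnnt3* was above 0 (0.98), and *Mylpf* (-0.61), *Actn3* (-0.18) and *Tnni2* (-0.14) were below 0. The skeletal myosin genes *Myh1*, *Myh2* and *Myh4* did not exceed 0.293 CPM. *Nppa* was higher among the atrial genes, at 1.31 (SE 0.24, edgeR adjusted p = 0.0146). *Myl4* measured 1.90, 1.89 and 1.85 CPM in WT and 4.01, 2.14, 2.60 and 3.06 CPM in A178D hearts, without overlap, at 0.65 (SE 0.23, edgeR adjusted p = 0.171), while *Myl7* and *Sln* had at most 0.152 CPM. *Col3a1* was the called gene of 7 fibroblast genes, at 0.62 (SE 0.14, edgeR adjusted p = 0.0317), and 4 of the 7 were higher and none lower at an unadjusted p under 0.05. Lists of endothelium (6 tested), macrophages (6), erythrocytes (5), adipocytes (3) and neurons and Schwann cells (3) had no edgeR call, with 2 higher and 1 lower macrophage gene at an unadjusted p under 0.05 and none in the other lists. Adipocyte genes summed to at most 1.40 CPM.

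Of 15 clock genes, edgeR called 1 higher and 5 lower, beside 2.35% of all entries in either direction, and all 6 calls were lost without WT replicate 3. *Arntl* measured 2.44, 1.10 and 1.33 CPM in WT and 8.70, 5.24, 4.15 and 4.14 CPM in A178D hearts, a log2 fold change of 1.77 (SE 0.31, edgeR adjusted p = 0.0115). The called lower ones were *Per2* (-0.88), *Cry1* (-0.51), *Per3* (-0.47), *Hlf* (-0.42) and *Tef* (-0.39). Their log2 fold changes without WT replicate 3 were -0.79, -0.43, -0.47, -0.43 and -0.39 in this order, and that of *Arntl* was 1.545. The time of day of collection is not given in the sources used here, and its part in the values of the adaptors was not tested. The Y-linked genes *Ddx3y*, *Eif2s3y*, *Kdm5d* and *Uty* were present in all 7 hearts, *Ddx3y* at 75.2 to 119 CPM, and edgeR called none of them, nor was any at an unadjusted p under 0.05. Of the called genes of the lists, *Acta1*, *Casq1*, *Acta2*, *Tagln* and *Pik3r1* were called in all 7 fits without 1 heart. All of the others lost their call in at least 1 of the fits without WT replicate 3, WT replicate 4 or A178D replicate 1.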

How the data were processed

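The deposited files were a table of raw counts for 7 left ventricle libraries and a second table with a signal, the count divided by 1 DESeq2 size factor per library. That table served only to read these factors (0.731 to 1.23). The submitters' processing notes name bcl2fastq 2.18.0.12, HISAT2 2.1.0, SAMtools 1.6, DESeq2 1.26.0 and GRCm38; the counting program is not given in the sources used here. Symbols, positions and exon lengths came from GENCODE M21. Of 21257 entries, 268 had no name; 442 entries in 219 sets with identical counts (total at least 30) were reduced to 1 each, and 107 entries under that total that repeated the counts of their own identifier were removed, which left 20927.

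A178D was compared with WT by edgeR 4.0.16 (R 4.3.3; TMM, glmQLFit, glmQLFTest, no covariate) on entries that reached 10 counts in 3 or more libraries, with Benjamini-Hochberg adjustment over 13894 entries. SE is that of the log2 fold change, derived as its absolute value divided by the square root of the F statistic of this test. The biological coefficient of variation was 0.111. The scripts were tested on simulated data. Alternatives were DESeq2 1.42.0, its size factors, limma-voom (limma 3.58.1), no filter, at least 10 counts in every library, replicate number as a block, halved counts, the table as deposited, offsets for length and GC content (mgcv 1.9.3, basis size 6) and leaving out each heart.

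Members and lists were chosen with earlier results of these data known. Genes named were members with a p under 0.05, muscle members, the 5 most abundant per kilobase, those next to the count minimum and those on chromosome 2. From the lists reported they were called genes, *Cul3*, *Rbx1*, *Keap1*, *Neb*, *Lmod2*, *Lmod3*, *Des* and *Nfe2l2*. Other genes were named after their values were seen. Lists were Cul3 core and neddylation, other Kelch BTB genes, BTB adaptors without Kelch repeats (not reported here), Klhdc genes, substrates and partners, 10 cell types, clock genes and sex-linked genes.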

Additional observations from a re-analysis of the deposited data

Results flagged for a closer look

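In 7 of 79 genes examined, 1 A178D heart stood apart from the other 3 by Dixon's criterion at the 5% level, where chance gives about 1 in 20 groups. *Btbd11* had 2.88 CPM in A178D replicate 2, the lowest of its group, where the other A178D hearts had 3.47 to 3.58 CPM and the WT hearts 3.94 to 6.13. *Kbtbd2* had 29.3 CPM in A178D replicate 3, the highest of its group, where the other A178D hearts had 27.1 to 27.4 CPM and the WT hearts 28.7 to 34.5. *Kbtbd4* had 27.5 CPM in A178D replicate 2, the lowest of its group, where the other A178D hearts had 29.6 to 29.96 CPM and the WT hearts 27.2 to 29.2. *Klhl25* had 5.65 CPM in A178D replicate 2, the lowest of its group, where the other A178D hearts had 7.73 to 8.09 CPM and the WT hearts 6.46 to 7.43. *Klhl29* had 0.595 CPM in A178D replicate 1, the lowest of its group, where the other A178D hearts had at least 1.17 CPM and the WT hearts 0.913 to 1.55. The larger *Btbd8* entry had 6.45 CPM in A178D replicate 4, the lowest of its group, where the other A178D hearts had 7.67 to 7.78 CPM and the WT hearts 6.62 to 7.15. *Col3a1* had 324 CPM in A178D replicate 2, the highest of its group, where the other A178D hearts had 303 to 306 CPM and the WT hearts 141 to 248. A178D replicate 2 was the heart set apart in 4 of the 7 genes. Groups of 3 hearts, as in WT, were not examined in this way.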

How the results depend on the processing

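No alternative turned a called member's direction. Of the single-member log2 fold changes under the alternatives, 807 kept their direction where called and their side of the threshold, 7 crossed to a call and 2 lost it, both *Btbd3* without 1 heart (adjusted p 0.106 lacking WT replicate 3 and 0.0595 lacking A178D replicate 1). With DESeq2 its adjusted p was 0.000263. DESeq2 gave 2 members higher and 2 lower, and called 306 entries higher and 380 lower in place of 145 and 182. Offsets for length and GC content gave 2 members lower and, among all entries, 205 higher and 263 lower. Leaving out 1 heart gave 0 to 1 members higher and 0 to 3 lower, beside 0.384% to 3.29% of all entries in either direction. The most were called without WT replicate 1 (*Klhl30* higher, and *Btbd3*, *Klhl13* and *Klhl38* lower), where the share of all entries was also the highest, 3.29%. No member was called without WT replicate 3 or A178D replicate 1. Members without overlap were 10 to 14 in the fits without 1 heart, beside 19.7% to 26.5% of all entries, since fewer hearts overlap less often. Among all entries, between 22 and 215 were then higher and between 31 and 238 lower: 22 and 31 without WT replicate 3, 40 and 42 without WT replicate 4, 40 and 50 without A178D replicate 1, 78 and 112 without A178D replicate 3, and 115 lower without A178D replicate 2. The cause was not tested. WT and A178D hearts share the replicate numbers 1, 3 and 4, but hearts of the same number did not deviate together (r of 0.003, -0.040 and -0.042). With the replicate block 124 entries were higher and 147 lower, and *Btbd3* was the called member (adjusted p 0.0333). Members with few counts, such as *Klhl29* (SE 0.33) and *Klhl10* (SE 0.35), allow only large differences to be seen.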

Other observations

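Hearts of a genotype differed little in most members. The median over the members of the pooled SD of log2 CPM within genotypes was 0.13, beside 0.15 over all tested entries. The largest spread was that of *Klhl15* (0.56), *Klhl29* (0.48) and *Klhl10* (0.42), which are low, and among members above 10 CPM that of *Klhl28* (0.38), *Btbd7* (0.34) and *Klhl34* (0.33).

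A178D replicate 4 had the lowest value of all 7 hearts in 18 of the 51 entries, and no other heart had it in more than 8. The highest value was that of A178D replicate 1 in 14 entries, and of no other heart in more than 9. Lowest and highest hearts were not counted over all tested entries, so that these counts are not shown to be particular to the members. A178D replicate 4 was also the library with the fewest counts, 33080675. In what follows the heart described is A178D replicate 4. In the 18 entries with more than 7000 exon bases its median deviation from the A178D mean was -0.16 on the log2 scale, with 14 of them below that mean, and in the 11 entries with fewer than 3000 exon bases it was -0.0090. Over all tested entries the same medians were -0.12 and 0.11, so that long genes were low in this heart across the table. The part of this trend in the values of long members such as *Klhl24*, *Btbd7* and *Klhl28* was not tested beyond the offsets for length and GC content, under which *Klhl28* had a log2 fold change of -0.53 (edgeR adjusted p 0.0610).

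Tested members lie on 17 chromosomes, at most 5 on 1 (chromosome 9, with *Kbtbd3*, *Kbtbd13*, *Klhl18*, *Klhl31* and *Klhl40*). In 3 pairs the neighbours were less than 1000000 bases apart. *Klhl10* and *Klhl11* on chromosome 11 are 5.59 kb apart on opposite strands, with log2 fold changes of 0.49 and -0.25. *Klhl6* and *Klhl24* on chromosome 16 are 114.5 kb apart, with 0.32 and 0.00012, and *Klhl41* and *Klhl23* on chromosome 2 are 137.7 kb apart, with 0.052 and -0.10. Only *Klhl6* of these had an unadjusted p under 0.05.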
